A study of Mus musculus with 4 samples.

Results

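The leukocyte integrins and Cd44 are 10 genes of cell adhesion, taken by name from the 23235 genes in the deposited tables: the alpha subunits Itgam, Itgal, Itgax, Itga4, Itga5 and Itga6, the beta subunits Itgb2, Itgb1 and Itgb7, and Cd44. All 10 were found and all 10 passed a filter of 1 FPKM (fragments scaled to transcript length and library size). The libraries came from acute myeloid leukaemia of genotype NRASG12V/Mll-AF9, grown in SCID/Beige mice, which lack T and B cells and have impaired NK cells, and left for 20 days to a full leukaemia. Both the on and the off leukaemias carry the Mll-AF9 fusion. The groups are NRASG12V on, and NRASG12V off for 48 h, 72 h and 96 h after doxycycline was injected and added to the drinking water. Each group holds 1 library, 4 in all, and nothing in the labels says whether they came from separate mice, which tissue was taken or what age the mice had at each time. No library received doxycycline with NRASG12V left on, so effects of the drug, of elapsed time and of the switch cannot be told apart.

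Integrins are membrane receptors made of 1 alpha and 1 beta subunit. Leukocytes keep them in a resting shape until signals from inside the cell open them, after which they hold the cell to other cells or to matrix. Itgb2 pairs with Itgal (LFA-1), Itgam (Mac-1) and Itgax, Itgb1 pairs with Itga4, Itga5 and Itga6 among others, and Itgb7 pairs with Itga4 and Itgae. Cd44 is the main receptor for hyaluronan, a sugar polymer of the marrow matrix. Several of these molecules are known to hold blood-forming and leukaemia cells in the bone marrow.

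Levels are given on the scale of the 48 h table, to which the other tables were brought through the on library that every table holds. Mouse Nras, to which reads of the transgene may map only in part, measured 24.5 FPKM on, then 17.1, 18.0 and 19.4 FPKM at 48 h, 72 h and 96 h off. The mix of marker genes also moved between the libraries. Beside the counts below, 4.85%, 5.76% and 8.16% of all genes were at least 2-fold lower at 48 h, 72 h and 96 h. The shares at least 2-fold higher were 5.0%, 6.61% and 7.39%. The 15 pan-leukocyte genes summed to 4654 FPKM on and to 3393, 2718 and 2101 FPKM at 48 h, 72 h and 96 h off, with 0, 2 and 10 of them at least 2-fold lower. Within that list Ptprc (CD45) measured 69.9 FPKM on, then 101, 94.4 and 64.5 FPKM off, so the list did not move as 1 block. Tyrobp and Fcer1g in that list are mostly myeloid and NK cell genes, so its name is only approximate. The 16 erythroid genes were all at least 2-fold higher at each time, summing to 7703 FPKM on and to 23925, 35927 and 38635 FPKM off. The 12 measured late neutrophil genes summed to 26536 FPKM on and to 46937, 42197 and 30189 FPKM off, with 7, 7 and 6 of them at least 2-fold higher. The 12 monocyte and macrophage genes summed to 857 FPKM on and to 353, 310 and 237 FPKM off, with 4, 5 and 6 at least 2-fold lower. The 13 megakaryocyte genes summed to 453 FPKM on and to 664, 676 and 788 FPKM off. At each time 1 of the 13 was at least 2-fold higher, a count near the share over all genes. The 11 endothelial and stromal genes summed to 266 FPKM on and to 416, 449 and 281 FPKM off. Of these 11, 9 reached 1 FPKM at each time, and 2 of the 9 were at least 2-fold higher each time. Collagen genes weighed most in that sum and were below on at 96 h, while the median log2 change of the list was 0.58, 0.74 and 0.53. The 13 lymphoid genes summed to 69.8 FPKM on and to 45.9, 34.6 and 41.0 FPKM off. The genes reaching 1 FPKM numbered 7, 6 and 6 at 48 h, 72 h and 96 h. Among them 2 were at least 2-fold lower at each time, and 2, 1 and 2 were at least 2-fold higher. Most of the on sum was Nkg7 (48.1 FPKM) and Cd79b (13.5 FPKM), which both fell. Of the 13, 7 reached 1 FPKM in at least 1 library. The median log2 change of those reaching it went up, at 0.67, 0.42 and 0.50, so the sum and the median moved apart. The B cell factor Pax5 was listed at 0 in every library. The part of these shifts in the values below was not tested, and in bulk RNA fewer cells of a type and less RNA per cell cannot be told apart.

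Changes were taken as log2((off + 1)/(on + 1)) within the table of each time, a scale that understates the change of low genes. At 48 h only Itga5 was at least 2-fold lower, at 72 h Itgb7 and Itga5, and at 96 h only Itgb7. The shares of all genes at least 2-fold lower were 4.85%, 5.76% and 8.16% at 48 h, 72 h and 96 h. None of the 10 was at least 2-fold higher at any time, against 5.0%, 6.61% and 7.39% of all genes. The median change of the 10 was -0.13 at 48 h, -0.20 at 72 h and -0.72 at 96 h, beside -0.14, -0.07 and -0.06 over all genes and -0.43, -0.73 and -1.09 over the pan-leukocyte genes. With 1 library a group these values have no replicate check. The 3 off libraries were also set together against the on library with limma, a fit in which any trend over time adds to the spread, and which takes the unreplicated on library to vary as much as the others. With Benjamini-Hochberg adjustment over 12015 genes, limma called 2 of the 10 lower and 0 higher, where 15.1% of all genes were called lower and 11.8% higher. With each library set to the same median it called the same counts of the 10, while the balance over all genes turned to 1401 lower and 1600 higher, beside 1814 lower and 1415 higher. Without the 48 h library limma called 3 of the 10 lower and 1 higher, adding Cd44 and Itga4, and it called more of all genes too, 19.4% lower and 15.9% higher. Over all genes the shares were 10.1% lower and 9.3% higher without the 72 h library, and 20.1% lower and 14.0% higher without the 96 h library. In all, 4973 of the 12015 genes had an unadjusted limma p under 0.05, so such a p was common in this fit. Cd44, Itgb7 and Itga5 were among them.

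**Figure D1:**
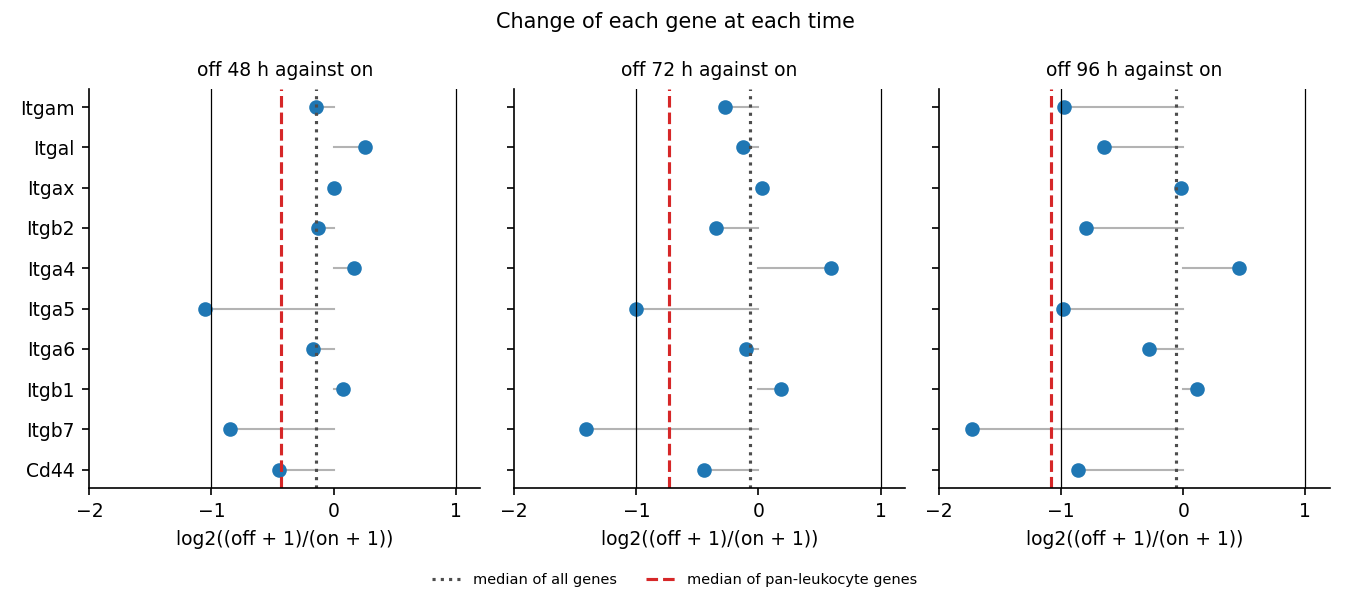
Change of each gene on the log2(FPKM + 1) scale, off minus on, in 1 panel per time, with thin lines at a 2-fold change. Itgb7 lies farthest left at 72 h and 96 h, and at 96 h it is the only gene of the 10 left of the pan-leukocyte median of -1.09.

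Itgb7, the beta subunit that pairs with Itga4 for binding to the gut addressin Madcam1 and to Vcam1, had the lowest change of the 10 at 72 h, at 96 h and in the mean, while Itga5 was lower at 48 h. It measured 89.8 FPKM on, then 49.3, 33.1 and 26.3 FPKM at 48 h, 72 h and 96 h off. Every off library was below it, the level was lower at each later time, and at 96 h it was 70.8% below the on level. The off libraries averaged 36.2 ± 11.8 FPKM (SD, n = 3), with a mean log2 change of -1.33 ± 0.31 (limma SE; adjusted p = 0.0177, Benjamini-Hochberg). A lower change was held by 7.6% of genes at 48 h, 1.96% at 72 h and 1.64% at 96 h. Itgb7 was the third most abundant of the 10 transcripts in the on library and the sixth at 72 h and 96 h. Without the filter on low values its limma adjusted p was 0.0689.

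Itga5, the alpha subunit of the main fibronectin receptor, fell as well, and did so in a different shape. It measured 13.4 FPKM on, then 5.95, 6.16 and 6.27 FPKM at 48 h, 72 h and 96 h off. The off libraries lay close together, at 6.13 ± 0.16 FPKM (SD, n = 3), and all lay below the on library. The mean log2 change was -1.02 ± 0.18 (limma SE; adjusted p = 0.00588, Benjamini-Hochberg), and its changes of -1.053, -1.004 and -0.983 sit on the 2-fold line, so the count of genes past it at each time depends on that line. Itga5 was the least abundant of the 10 in every library. With the pan-leukocyte median set to 0, its change at 96 h turned to 0.10, whereas that of Itgb7 stayed at -0.65. This setting takes the median of -0.43, -0.73 or -1.09 at 48 h, 72 h or 96 h from every gene. It thus moves all genes up by the same amount, here and wherever it is used below.

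RefSeq promoter windows on GRCm38.p6, from 250 bases before to 50 bases after a start site, matched 7 of the 10 genes. The windows of the 2 genes that limma called are printed here with matches to 4 short motifs in capitals, searched on both strands. The motifs were GAGGAA, an Ets-type core that the myeloid factor PU.1 can bind, TGTGGT for Runx factors, AGATAA for GATA factors and TGANTCA for AP-1. They are held by 28.3%, 16.8%, 11.2% and 7.81% of all 32851 promoter windows in the table, in that order. No matches of different motifs overlapped in the 7 windows. The Itgb7 window, chr15:102231886-102232185 on the minus strand, holds 1 match, to the Ets-type core on the opposite strand, 3 bases into the transcribed part. The Itga5 window, chr15:103366742-103367041 on the minus strand, holds 1 match to the same core, also on the opposite strand, 127 bases before the start site.
Itgb7: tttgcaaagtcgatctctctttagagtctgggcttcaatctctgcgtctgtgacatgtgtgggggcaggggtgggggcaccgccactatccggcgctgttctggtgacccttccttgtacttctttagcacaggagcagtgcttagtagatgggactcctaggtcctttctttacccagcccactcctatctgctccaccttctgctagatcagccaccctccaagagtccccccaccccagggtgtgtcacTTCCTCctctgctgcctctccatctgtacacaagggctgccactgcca
Itga5: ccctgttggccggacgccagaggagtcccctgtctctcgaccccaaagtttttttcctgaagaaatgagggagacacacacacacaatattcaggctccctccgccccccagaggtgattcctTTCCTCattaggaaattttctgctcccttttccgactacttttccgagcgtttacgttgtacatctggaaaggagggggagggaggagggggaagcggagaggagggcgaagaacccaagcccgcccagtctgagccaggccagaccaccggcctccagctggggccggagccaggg

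The remaining beta 1 and beta 7 pair subunits among the chosen genes, Itga4, Itgb1 and Itga6, did not pass the test. Itga4, which pairs with either Itgb1 or Itgb7, measured 26.0 FPKM on, then 29.3, 39.8 and 36.0 FPKM at 48 h, 72 h and 96 h off. Every off value was above the on value, with a mean log2 change of 0.41 ± 0.22 (limma SE) that did not pass the test (adjusted p = 0.194; 0.0437 without the 48 h library, Benjamini-Hochberg). Itgb1, the beta subunit with the widest range of alpha partners, measured 79.5 FPKM on, then 84.1, 90.3 and 85.9 FPKM off. The off libraries were all higher by a small margin, and the mean change of 0.12 ± 0.19 (limma SE) did not pass the test (adjusted p = 0.653, Benjamini-Hochberg). Itga6, a laminin receptor subunit, measured 14.0 FPKM on, then 12.3, 12.96 and 11.3 FPKM off, with a mean change of -0.18 ± 0.18 (limma SE; adjusted p = 0.475, Benjamini-Hochberg). All 3 off values lay below the on value, and with the pan-leukocyte median set to 0 the direction turned up at every time.

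Because FPKM are per length, the levels of different subunits can be set side by side, as transcripts and not as protein. The ratio of Itgb7 to its partner Itga4 was 3.46 in the on library and 1.68, 0.83 and 0.73 at 48 h, 72 h and 96 h off. Itgb7 thus exceeded Itga4 on and at 48 h, and lay below it at 72 h and 96 h. Among the 3 beta subunits, Itgb7 made up 23.0% of the summed FPKM on and 14.6%, 11.1% and 10.97% off, while Itgb1 made up 20.3% on and 25.0%, 30.4% and 35.9% off. Of the summed Itga4, Itga5 and Itga6, the share of Itga4 was 48.6% on and 61.6%, 67.6% and 67.2% off. The share of Itga5 was 25.2% on and 12.5%, 10.5% and 11.7% off.

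**Figure D2:**
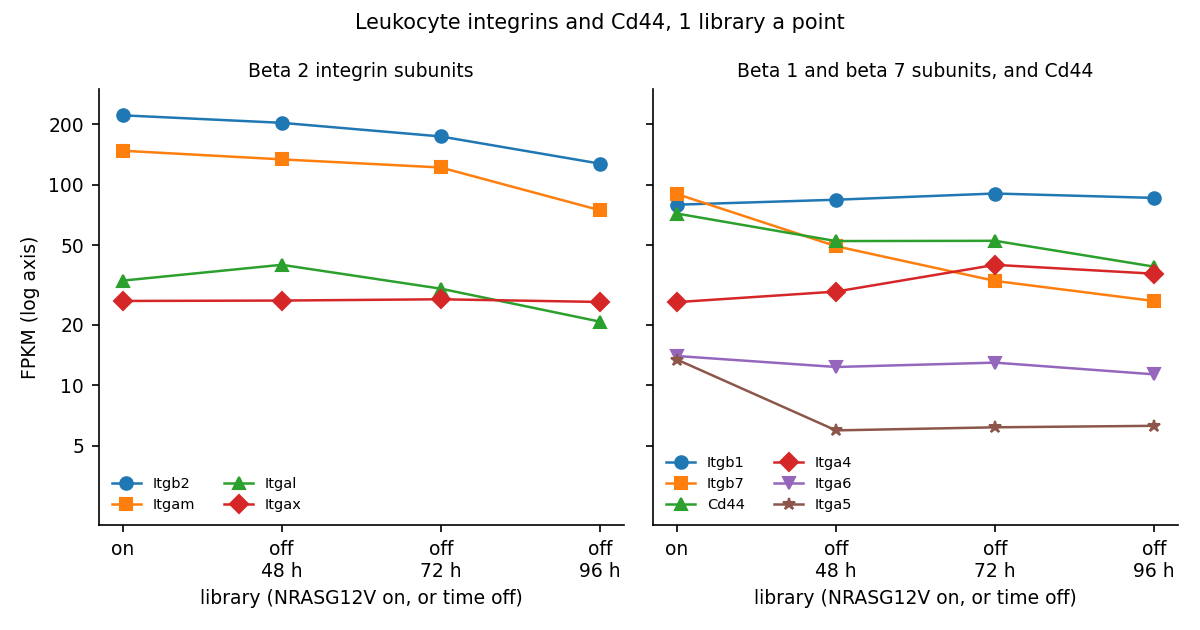
FPKM of each gene (log axis) in the on library and at 48 h, 72 h and 96 h off, 1 library a point, with the beta 2 subunits left and the others right. Itgb7 falls below Cd44, Itgb1 and, from 72 h, Itga4, and Itga5 is near 6 FPKM in all 3 off libraries.

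By level, the on library held Itgb2, Itgam, Itgb7, Itgb1, Cd44, Itgal, Itgax, Itga4, Itga6 and Itga5 in falling order. At 96 h off the order was Itgb2, Itgb1, Itgam, Cd44, Itga4, Itgb7, Itgax, Itgal, Itga6 and Itga5. Over the 3 off libraries the ranges of neighbours overlapped in most of this order. Itgb2 spanned 127 to 203 FPKM, Itgam 74.6 to 134 FPKM and Itgb1 84.1 to 90.3 FPKM. Cd44, Itgb7, Itga4, Itgal and Itgax formed an overlapping run between 20.7 and 52.5 FPKM. Only Itga6, at 11.3 to 12.96 FPKM, and Itga5, at 5.95 to 6.27 FPKM, overlapped no other gene of the 10.

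The beta 2 integrins carried the most transcript. Itgb2, the shared beta subunit, measured 222 FPKM on, then 203, 174 and 127 FPKM at 48 h, 72 h and 96 h off, the highest of the 10 in every library. Itgam (CD11b), a marker of monocytes and neutrophils, measured 148 FPKM on, then 134, 122 and 74.6 FPKM off. For both genes each later library was lower than the one before it, and the 96 h library lay apart from the others, with Itgb2 42.6% and Itgam 49.5% below on. Neither passed the test over the 3 times: the mean changes were -0.42 ± 0.28 for Itgb2 (limma SE; adjusted p = 0.282, Benjamini-Hochberg) and -0.46 ± 0.32 for Itgam (adjusted p = 0.305). The size rests on the 96 h library, without which the mean changes were -0.24 and -0.21. At 48 h their changes of -0.12 and -0.14 were close to the median over all genes, -0.14, and with the median of genes expressed in both libraries set to 0 they turned to 0.03 and 0.01. With the pan-leukocyte median set to 0, both turned up at all 3 times, and at 96 h they were 0.29 for Itgb2 and 0.11 for Itgam.

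Itgal (CD11a), the alpha subunit of LFA-1, measured 33.2 FPKM on, then 39.8, 30.3 and 20.7 FPKM at 48 h, 72 h and 96 h off. The on library lay inside the range of the off libraries, which averaged 30.3 ± 9.55 FPKM (SD, n = 3; mean log2 change -0.18 ± 0.32, limma SE; adjusted p = 0.706, Benjamini-Hochberg). Its mean change was 0.06 without the 96 h library. Itgax (CD11c), known from dendritic cells and some macrophages, was nearly level: 26.3 FPKM on and 26.4, 26.8 and 26.0 FPKM off. The mean change was 0.01 ± 0.18 (limma SE; adjusted p = 0.984, Benjamini-Hochberg). With the pan-leukocyte median set to 0, Itgax was 1.07 higher at 96 h. Under that setting 6082 of 11729 genes were at least 2-fold higher at 96 h, so such a value was common.

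The summed Itgam, Itgal and Itgax came close to the level of their partner Itgb2 in every library. The alpha sum was 207 FPKM on and 200, 179 and 121 FPKM off, so that the alpha sum over Itgb2 was 0.93 on and 0.98, 1.03 and 0.95 at 48 h, 72 h and 96 h off. The parts of that sum shifted. Itgam made up 71.3% of it on and 66.9%, 68.1% and 61.5% off, and Itgax 12.7% on and 13.2%, 15.0% and 21.4% off. With Itgad, the fourth alpha partner of Itgb2, added to the sum, the ratio was 0.97 on and 1.05, 1.14 and 1.09 off. The sums were set up after the values had been seen.

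**Figure D3:**
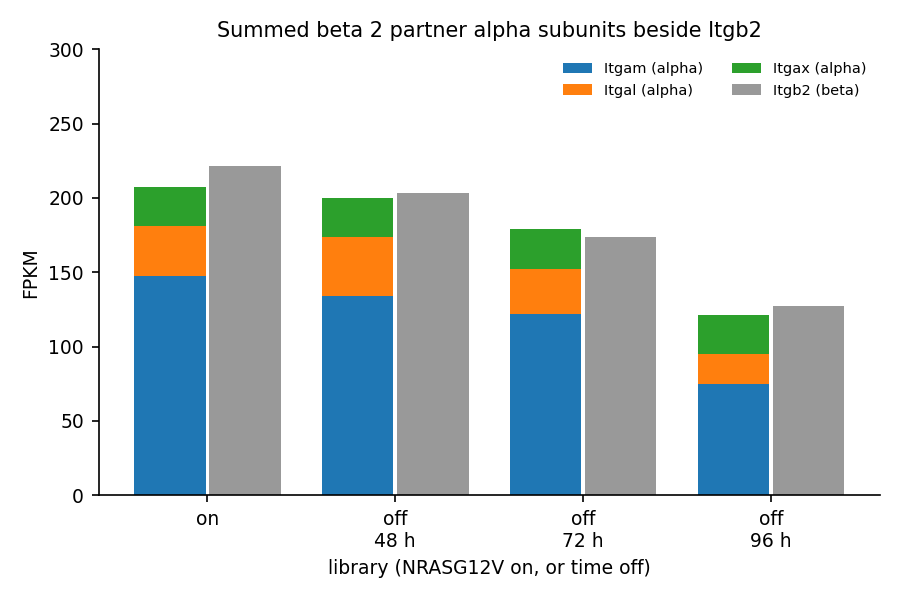
Stacked FPKM of the alpha subunits Itgam, Itgal and Itgax (left bar) beside Itgb2 (grey bar) in each library. The paired bars keep a similar height, at 121 and 127 FPKM at 96 h off, against 207 and 222 FPKM on.

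The promoter windows of Itgam and Itgax, which lie near each other on chromosome 7, are printed because the levels of these neighbours parted at 96 h. The Itgam window, chr7:128062390-128062689 on the plus strand, holds 3 matches to the Ets-type core. They start 84 and 15 bases before the start site and 33 bases into the transcribed part. The Itgax window, chr7:128129300-128129599 on the plus strand, holds none of these, and holds 1 match each to the GATA core, the AP-1 motif and the Runx core. Of the 7 windows 5 hold the Ets-type core, including that of Itgb1, a gene that did not pass the test; a match here is a description and not a bound site.
Itgam: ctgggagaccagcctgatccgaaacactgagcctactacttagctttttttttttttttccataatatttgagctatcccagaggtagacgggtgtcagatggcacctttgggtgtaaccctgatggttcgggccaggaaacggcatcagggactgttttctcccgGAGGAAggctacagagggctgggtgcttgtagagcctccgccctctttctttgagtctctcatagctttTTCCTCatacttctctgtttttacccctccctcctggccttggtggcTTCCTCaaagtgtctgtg
Itgax: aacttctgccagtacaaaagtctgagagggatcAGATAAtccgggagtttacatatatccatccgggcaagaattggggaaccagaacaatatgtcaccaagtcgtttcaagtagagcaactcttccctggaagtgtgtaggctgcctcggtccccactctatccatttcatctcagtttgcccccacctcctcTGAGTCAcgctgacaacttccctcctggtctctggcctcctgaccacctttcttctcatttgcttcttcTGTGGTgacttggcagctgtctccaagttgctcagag

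Cd44, also made as variants by splicing that gene-level FPKM do not separate, measured 71.8 FPKM on, then 52.3, 52.5 and 39.0 FPKM at 48 h, 72 h and 96 h off. Every off value was below the on value, by 45.7% at 96 h. The off mean was 47.9 ± 7.74 FPKM (SD, n = 3). Its mean change of -0.59 ± 0.23 (limma SE) did not pass the test (adjusted p = 0.0926; 0.0388 without the 48 h library, Benjamini-Hochberg). With the pan-leukocyte median set to 0, its changes were -0.02, 0.29 and 0.22.

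Among the other integrin subunits, 12 of 17 reached 1 FPKM, of which limma called 4 higher (33.3%, beside 11.8% of all genes) and 0 lower and left 8 (1 higher without the 72 h library, and 1 without the filter). Their median change was 0.39, 0.52 and 0.35 at 48 h, 72 h and 96 h. Itgad (CD11d), known from splenic macrophages, rose: it measured 6.86 FPKM on, then 14.6, 18.7 and 18.0 FPKM off (1.2 ± 0.20, limma SE; adjusted p = 0.00538, Benjamini-Hochberg). Itga2b and Itgb3, the fibrinogen receptor of platelets, also passed, together. Itga2b measured 23.4 FPKM on, then 35.9, 36.7 and 39.3 FPKM off (0.65 ± 0.18, limma SE; adjusted p = 0.0341, and 0.168 without the 72 h library, Benjamini-Hochberg). Itgb3 measured 32.8 FPKM on, then 51.0, 53.8 and 50.1 FPKM off (0.64 ± 0.19, limma SE; adjusted p = 0.0377, and 0.230 without the 72 h library). Both are also in the megakaryocyte marker list. Itga8, at 1.54 FPKM on and at 3.21, 3.83 and 2.79 FPKM off, passed too (limma adjusted p = 0.0248, and 0.0542 without the 72 h library, Benjamini-Hochberg). Itga1, a collagen receptor subunit, had the lowest mean change, -0.57 ± 0.21 (limma SE; adjusted p = 0.0781, Benjamini-Hochberg). Itgb2l, a mouse relative of Itgb2 outside these lists that was noticed after its values were seen, measured 22.0 FPKM on, then 42.8, 44.2 and 30.2 FPKM off.

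**Figure D4:**
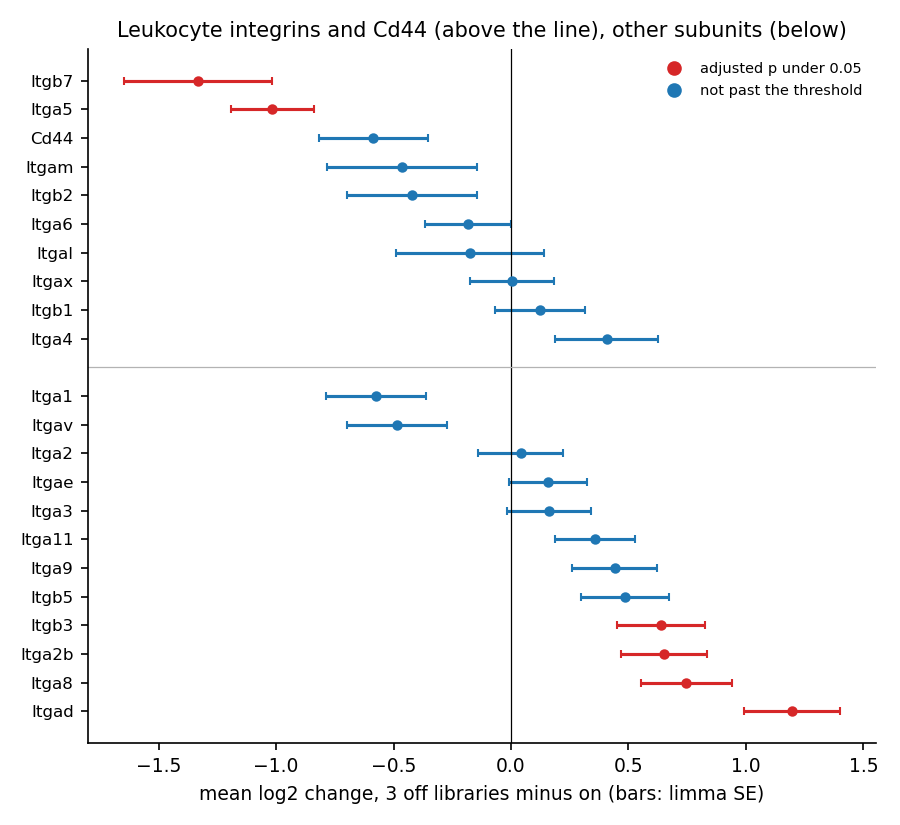
Mean log2(FPKM + 1) change, 3 off libraries minus on, with the limma standard error as bars, for the 10 genes above the line and 12 other integrin subunits below it. Itgb7 and Itga5 pass on the lower side, and Itgad, Itga8, Itga2b and Itgb3 on the higher side.

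Most ligands of these integrins did not pass the test. Of 14 measured, limma called 3 higher and 2 lower and left 9 (2 to 4 higher and 1 to 3 lower as each off library was left out). The share called lower, 14.3%, was near the 15.1% over all genes, and 21.4% were called higher, beside 11.8%. Only 1 was called lower with each library set to the same median, without the filter, or without trend and robust eBayes. Icam4, a red cell ligand of several integrins, rose, as the erythroid genes did: it measured 11.1 FPKM on, then 37.5, 48.6 and 65.7 FPKM off (2.05 ± 0.29, limma SE; adjusted p = 0.0027, Benjamini-Hochberg). Vcam1, the ligand of Itga4 with Itgb1, measured 35.1 FPKM on, then 62.1, 75.3 and 65.9 FPKM off (limma adjusted p = 0.0135, and 0.0732 without the 72 h library, Benjamini-Hochberg). Jam3 rose too, at 0.955 FPKM on and 2.47, 2.04 and 1.91 FPKM off (limma adjusted p = 0.0267, Benjamini-Hochberg). The cadherin Cdh1, which binds Itgae with Itgb7, fell, with 5.78 FPKM on, then 0.471, 0.471 and 0.391 FPKM off (-2.23 ± 0.17, limma SE; adjusted p = 0.000359, Benjamini-Hochberg). Icam2, a ligand of Itgal, fell, with 10.8 FPKM on, then 5.85, 5.34 and 7.45 FPKM off (limma adjusted p = 0.0401, and 0.148 without the 72 h library, Benjamini-Hochberg). Icam1, at 21.1 FPKM on and 15.1, 11.8 and 14.2 FPKM off, did not pass (limma adjusted p = 0.0580; 0.0222 without the 48 h library and 0.0326 without the 96 h library). Vtn, Fga, Fgb and Fgg were listed at 0 in every library.

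Inside the cell, genes that regulate integrin activation, both those that promote it and those that restrain it, had a median change of -0.40, -0.40 and -0.41 at 48 h, 72 h and 96 h. Of 19 measured, limma called 5 lower (26.3%, beside 15.1% of all genes) and 0 higher and left 14 (3 lower without the 72 h library, 2 without the filter). Those called lower are known to act in opposite ways: Cyth1, Skap2 and the Rap1 effector Rassf5 promote adhesion, and Cytip and Itgb1bp1, which binds the tail of Itgb1, restrain it. Cytip fell, with 27.5 FPKM on, then 11.6, 10.6 and 7.36 FPKM off (-1.42 ± 0.25, limma SE; adjusted p = 0.00608, Benjamini-Hochberg). Its partner Cyth1, an exchange factor that acts on beta 2 integrins, fell as well (-0.86 ± 0.22, limma SE; adjusted p = 0.0233, Benjamini-Hochberg). The adaptor Skap2 was called at -0.93 ± 0.27 (limma SE; adjusted p = 0.0386, and 0.0524 without the 72 h library). Rassf5 measured 29.9 FPKM on, then 18.6, 17.1 and 13.2 FPKM off (limma adjusted p = 0.0253, Benjamini-Hochberg). Itgb1bp1 measured 14.2 FPKM on, then 8.29, 8.26 and 7.41 FPKM off (limma adjusted p = 0.0188, and 0.0608 without the 72 h library, Benjamini-Hochberg). Of 24 genes that signal from integrins, limma called 5 lower and 2 higher and left 17 (8 lower without the 48 h library, 1 higher without the 72 h library). The shares were 20.8% lower and 8.33% higher, beside 15.1% and 11.8% of all genes. The count called lower was 2 with each library set to the same median, and 1 lower and 1 higher were called without the filter. Parvg, the parvin of blood cells, fell, with 119 FPKM on, then 50.7, 43.0 and 40.7 FPKM off (limma adjusted p = 0.00321, Benjamini-Hochberg), while its relative Parvb stood at 27.5 FPKM on, then 44.3, 50.5 and 58.5 FPKM off (adjusted p = 0.0218, and 0.0618 without the 72 h library). The exchange factor Vav1 (-0.98 ± 0.26, limma SE; adjusted p = 0.0257, Benjamini-Hochberg) and the Src-family kinase Lyn (-0.91 ± 0.28; adjusted p = 0.0422) fell, and the focal adhesion kinase Ptk2 rose (0.87 ± 0.17; adjusted p = 0.00957). The pan-leukocyte genes had 5 of 15 called lower (33.3%, beside 15.1% of all genes). The count was 12 without the 48 h library and 1 without the filter, where 19.4% and 7.63% of all genes were called lower.

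Among Cd44 and hyaluronan partners, limma called 5 of 15 lower (33.3%, beside 15.1% of all genes) and 3 higher (20.0%, beside 11.8%) and left 7 (1 higher without the 72 h library or without the filter, 5 without the 96 h library). Osteopontin (Spp1), a ligand of Cd44 and of several integrins, fell, with 50.4 FPKM on, then 3.15, 4.89 and 2.38 FPKM off (limma adjusted p = 0.000575, Benjamini-Hochberg). The proteoglycan Vcan fell, with 8.57 FPKM on, then 0.468, 1.09 and 0.321 FPKM off (adjusted p = 0.00111). Serglycin (Srgn), which can bind Cd44, fell, with 339 FPKM on, then 101, 89.4 and 76.7 FPKM off (adjusted p = 0.0018). The gelatinase Mmp9, which Cd44 can hold at the cell surface, rose, with 43.2 FPKM on, then 186, 164 and 109 FPKM off (limma adjusted p = 0.00531, Benjamini-Hochberg), and is also in the late neutrophil list. The hyaluronan receptor Hmmr, which also serves in mitosis, and the hyaluronidase Hyal2 were called higher (limma adjusted p = 0.0302 and 0.0375; 0.0856 and 0.0752 without the 72 h library). Of 15 other leukocyte adhesion molecules, limma called 4 lower (26.7%, beside 15.1% of all genes) and 1 higher (6.67%, beside 11.8%) and left 10. Without the 48 h library 7 were called lower and 4 higher, where 19.4% and 15.9% of all genes were called. The count called higher was 2 without the 96 h library and 3 with each library set to the same median. In those fits 14.0% and 13.3% of all genes were called higher. The sialomucin Spn (CD43) fell, with 123 FPKM on, then 49.9, 48.7 and 43.7 FPKM off (limma adjusted p = 0.00296, Benjamini-Hochberg). The tetraspanin Cd82 rose, with 83.4 FPKM on, then 163, 198 and 202 FPKM off (adjusted p = 0.00806), whereas the tetraspanin Cd63 fell (-0.98 ± 0.23, limma SE; adjusted p = 0.0163).

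Of 8955 other genes reaching 5 FPKM in at least 1 library, those whose 3 changes lay nearest to those of Itgb2 were Tlr2, Klhl2 and Cbx8, at Euclidean distances of 0.05, 0.06 and 0.06 on the log2 scale. The nearest to Itgb1 were Tmem167b, Fam3a and Gtf2e2, at 0.02, 0.04 and 0.04. The nearest to Cd44 were Apobec1, Arl10 and Smad4, at 0.04, 0.05 and 0.06. The 3 changes share the on library, so these distances describe likeness over 4 libraries and nothing more.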

How the data were processed

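RNA from 4 leukaemia libraries was measured. The authors deposited FPKM values in 4 tables, each pairing the on library with 1 off library or with a combined off value. TopHat2 2.0.4, Cuffdiff and build mm9 are named in the submitters' processing notes; the annotation and the use of strand are not known here. The column for 0 hours stands for the on library, the only sample before doxycycline. Tables were scaled separately by the authors: on values above 0 agreed within 0.1% for at least 99.9% of genes after 1 factor a table (1.05 and 1.06 for 72 h and 96 h), used here to bring the levels together. FPKM hold no counts, so total depth is unknown. Steps in low values gave 1.15, 1.04 and 1.19 times as many reads per FPKM at 48 h, 72 h and 96 h off as on. The same on library was scaled differently in each table, so scaling did not follow mapped totals alone. These ratios therefore do not give the depth of the libraries.

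Changes used a pseudocount of 1 FPKM and genes reaching 1 FPKM in either library of a table. limma 3.58.1 (R 4.3.3, statmod 1.5.0) was fitted to log2(FPKM + 1) of genes reaching 1 FPKM in at least 1 library, 3 off against 1 on, with trend and robust eBayes, leaving 2 residual degrees of freedom; Benjamini-Hochberg adjustment ran over all genes, with calls at 0.05. In simulated data every library, the on library included, had the same spread per gene and no trend over time. There the limma estimates came close to the changes put in, as that set-up makes likely. This does not test whether the on library varies as the others do. Most 2-fold changes were not called there, so a missed call says little at that size. The limma p-values speak only of the spread between these libraries, which may be technical. Alternatives were other pseudocounts, filters, centrings and eBayes settings, each off library left out, and the deposited combined value. The genes and lists were chosen with earlier results of these data known. From each list, up to 3 genes per direction with the largest mean change of at least 0.5 could be named. Itgb3, Itgb2l, Ptprc, Tyrobp, Fcer1g, Rassf5 and Itgb1bp1, and the genes listed at 0, were added after their values were seen. Ly6g had no row and 23 entries of the lists did not reach 1 FPKM. A gene that this rule names is not reported here.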

Additional observations from a re-analysis of the deposited data

Results flagged for a closer look

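Results are given here where the direction differed between times; with 1 library per time, none of these differences was tested. Itgal was 0.26 higher on the log2 scale at 48 h off and -0.65 at 96 h off, each against on. Itgax, at 0.027 at 72 h and -0.016 at 96 h, changed sign around 0. The median change of the integrin ligands was 0.23 at 72 h and -0.35 at 96 h, and that of the integrin signalling genes 0.12 at 48 h and -0.24 at 96 h. The median of the other leukocyte adhesion molecules was -0.12 at 48 h and 0.014 at 72 h.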

How the results depend on the processing

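No paired analysis was possible because each group holds 1 library. Itga5 stayed called in every alternative limma fit ( Benjamini-Hochberg adjusted p from 0.00192 to 0.0247), and Itgb7 under all but the fit without a filter (0.00046 to 0.0689), where 1 of the 10 genes was called. The lowest of these adjusted p came from fits without 1 off library, which leave fewer residual degrees of freedom than the main fit. For Itgb7 every such fit gave a smaller adjusted p than the main fit, so these low values are no sign of a firmer call. The combined value and the pan-leukocyte setting have no limma fit. Leaving out each off library gave 2 to 4 of the 10 called, beside 2317 to 4225 of all genes. Itgal's mean change ran from -0.39 to 0.063 and Itgax's from -0.0047 to 0.017 over those fits, so both reversed. The deposited combined value kept the direction of all 10. Of the 10 genes, 0, 1 and 1 were at least 2-fold changed at 48 h, 72 h and 96 h with a pseudocount of 5 FPKM, and 1, 2 and 2 with 0.1 FPKM. With the median of genes in both libraries set to 0 the counts were 0, 1 and 1. With the pan-leukocyte median set to 0 they were 0, 1 and 3, all of them higher (Itga4 at 72 h; Itga4, Itgb1 and Itgax at 96 h). Over all genes, 1156, 1452 and 1824 were at least 2-fold changed; the counts were 1830, 2185 and 2545 with a pseudocount of 0.1 FPKM, 531, 686 and 916 with 5 FPKM, and 1655, 3480 and 6174 with the pan-leukocyte median set to 0. The median over genes in both libraries was -0.15 at 48 h; with it set to 0 the split there became 811 higher and 395 lower, beside 587 and 569, and at 96 h 988 higher and 805 lower, beside 867 and 957. The pan-leukocyte setting gave 88.7%, 96.7% and 98.5% higher. The cause of these moves was not tested. A lone library in each group and unknown depth limit every value.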
